A study of Mus musculus with 5 samples.

Results

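The cytosolic ribosomal protein genes were taken from the count table as protein-coding genes whose mouse symbol is Rpl or Rps followed by a number, together with Rpsa, Rplp0, Rplp1 and Rplp2. Rps6k kinases and pseudogenes were left out, and genes named as paralogs of another member, such as Rpl3l, were kept. The rule found 85 genes among 56941 identifiers, by symbol and gene type alone. Of these, 83 reached 10 counts in at least 1 library and were tested.

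RNA-seq was performed on the iridocorneal angle, the limbal ring of tissue around the aqueous outflow pathway, dissected from untreated mice. The mice are recorded as 12 months old, with 3 mice stated per pool (the names of the Gpnmb+ libraries list 2 animals each). The DBA/2J group comprised 3 pools from mice with a nonsense allele of Gpnmb, a melanosomal glycoprotein. The control group, named Gpnmb+ (DBA/2J-Gpnmb+/SjJ), comprised 2 pools from the same strain with functional Gpnmb, and both strains carry the Tyrp1 b allele. The comparison asks how the tissue that controls intraocular pressure differs in a mouse model of pigmentary glaucoma, and each p-value below measures only the spread between these 5 pools.

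The pools held between 43900661 and 49837758 counts on genes. Gpnmb, which carries the nonsense allele in DBA/2J, stood at 45.9, 52 and 43.6 CPM (counts scaled to a common library size, with TMM factors) in the DBA/2J pools. It stood at 2555 and 2260 CPM in the Gpnmb+ pools, which matches the labels. Of 10 trabecular meshwork markers, 9 were tested, with summed levels of 2927 to 3114 CPM in DBA/2J pools and 2784 to 2898 CPM in Gpnmb+ pools. Single markers differed more than these sums, from -1.92 to 0.57 on the log2 scale. At an unadjusted p of at most 0.05 in edgeR, 4 were lower and 2 higher, where 7.6% of all genes were lower and 8.31% higher. Edn3 was called lower by edgeR, as were 0.294% of all genes. The sexes were not balanced between the groups, although males and females are described for both. The Y-linked gene Ddx3y had 3608, 4168 and 1567 counts in DBA/2J pools 1, 2 and 3 but 0 and 4 counts in the Gpnmb+ pools. The female-specific Xist had 596, 0 and 2417 counts against 7843 and 9152. Sex and genotype therefore cannot be told apart in any difference described here.

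Ribosomal proteins clothe the ribosomal RNA of the small subunit, which reads the messenger RNA, and of the large subunit, which joins the amino acids. Each ribosome needs 1 copy of nearly every protein, so the proteins are needed in matched amounts. Many transcripts of these genes begin with a C followed by a run of pyrimidines, the TOP motif, through which mTORC1 controls their translation. Intronless copies of their mRNAs are scattered through mammalian genomes as processed pseudogenes, so short reads from them do not always have a single place of origin.

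No ribosomal protein gene differed between the genotypes by the test, but 82 of the 83 had a lower level in DBA/2J than in Gpnmb+. Their median log2 fold change was -0.21, beside -0.02 over all 19713 genes tested. A change below 0 was seen in 98.8% of the members and in 52.6% of all genes. The exception was Rpl3l, the paralog of Rpl3 known from striated muscle.

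A call needed an adjusted p of at most 0.05 and a change of at least 1.5-fold, and 0 of 83 members met it, where 0.796% of all genes did (0.294% lower and 0.502% higher in DBA/2J). The smallest adjusted p among them was 0.266, for Rpl41 (quasi-likelihood test of edgeR, p-values adjusted over all genes by Benjamini-Hochberg). DESeq2, which called 4.7% of all genes, and limma-voom also called 0 members. At an unadjusted p of at most 0.05, 9 members were lower and 0 higher in edgeR, which is 10.8% of the members beside 7.6% of all genes lower and 8.31% higher, and DESeq2 gave 14 lower and 0 higher beside 7.1% of all genes. Every DBA/2J pool lay below both Gpnmb+ pools for 36 members, 43.4% of those tested beside 17.2% of all genes, and the reverse order was seen for 0 members beside 17.3%. In bulk tissue, fewer cells of a type and less RNA per cell cannot be told apart.

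**Figure D1:**
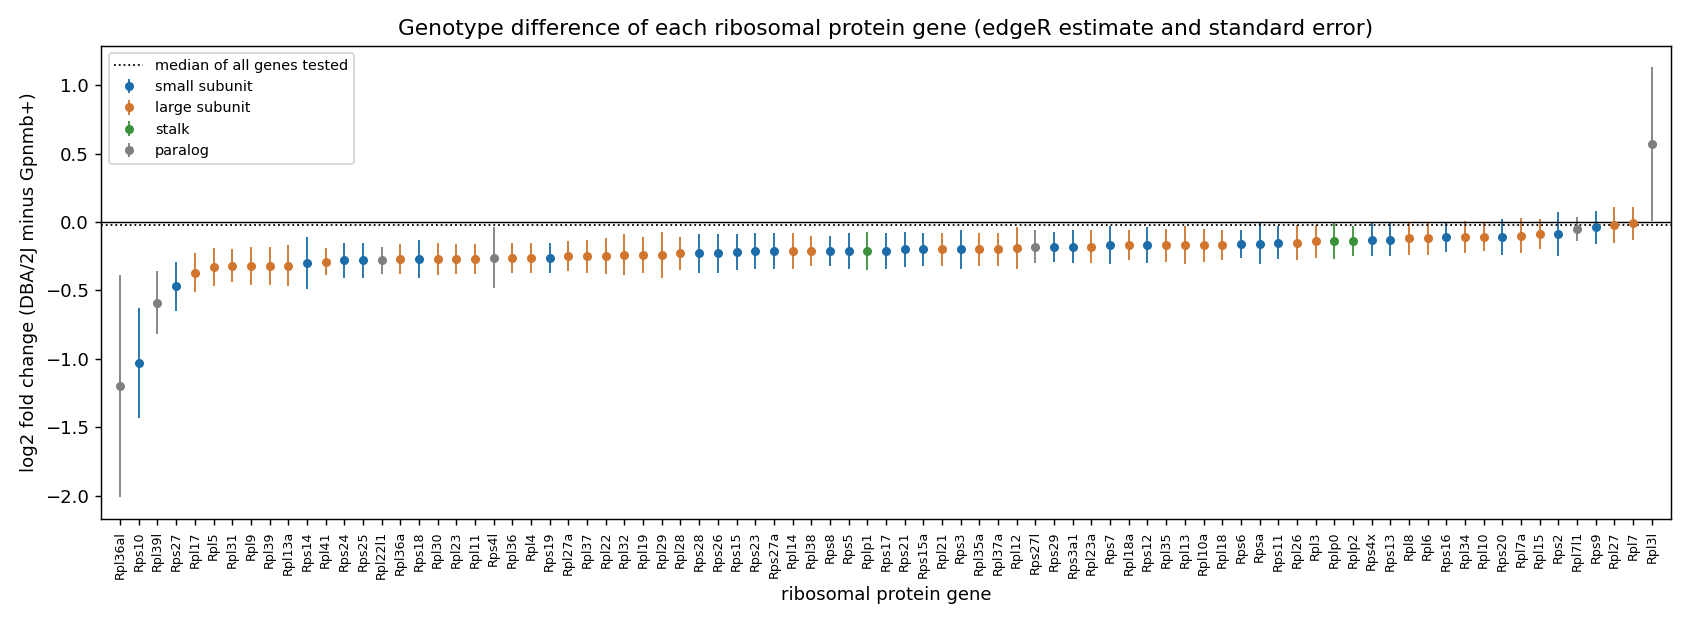
Log2 fold change (DBA/2J minus Gpnmb+) of each of the 83 tested ribosomal protein genes, ordered by value and colored by role, with edgeR standard errors as bars and the median of all genes as a dotted line at -0.02. Most points sit in a narrow band below 0 around the median of -0.21, and the wide bars at the ends belong to genes with few counts.

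The share of each library's counts that fell on the 85 members was 2.98%, 2.93% and 2.56% in DBA/2J pools 1, 2 and 3 and 3.14% and 3.52% in Gpnmb+ pools 1 and 2. The groups did not overlap, yet their nearest pools lay closer together than the outer pools of either group. The means were 2.82% ± 0.227 (SD, n = 3) and 3.33% ± 0.269 (SD, n = 2), with a p of 0.1 in a two-sided exact permutation test of the absolute difference, the smallest that the 10 splits of 5 pools allow. The share of counts on the 13 mitochondrially encoded mRNAs ran the other way, at 3.89%, 4.44% and 3.87% against 2.98% and 2.48%.

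The difference rested largely on 2 pools. Among the 73 members with a mean level above 100 CPM, all 73 were lowest in DBA/2J pool 3, and 62 were highest in Gpnmb+ pool 2. Relative to each gene's mean over the 5 pools, the median member stood at 0.02 and -0.01 on the log2 scale in DBA/2J pools 1 and 2, at -0.26 in DBA/2J pool 3, at 0.03 in Gpnmb+ pool 1 and at 0.21 in Gpnmb+ pool 2. Gpnmb+ pool 1 was above both DBA/2J pools 1 and 2 for 32 of these genes, between them for 23 and below both for 18. The median difference between Gpnmb+ pool 1 and DBA/2J pool 1 was 0.00, while Gpnmb+ pool 2 exceeded Gpnmb+ pool 1 by a median of 0.17 and DBA/2J pool 3 differed from DBA/2J pool 1 by -0.28.

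**Figure D2:**
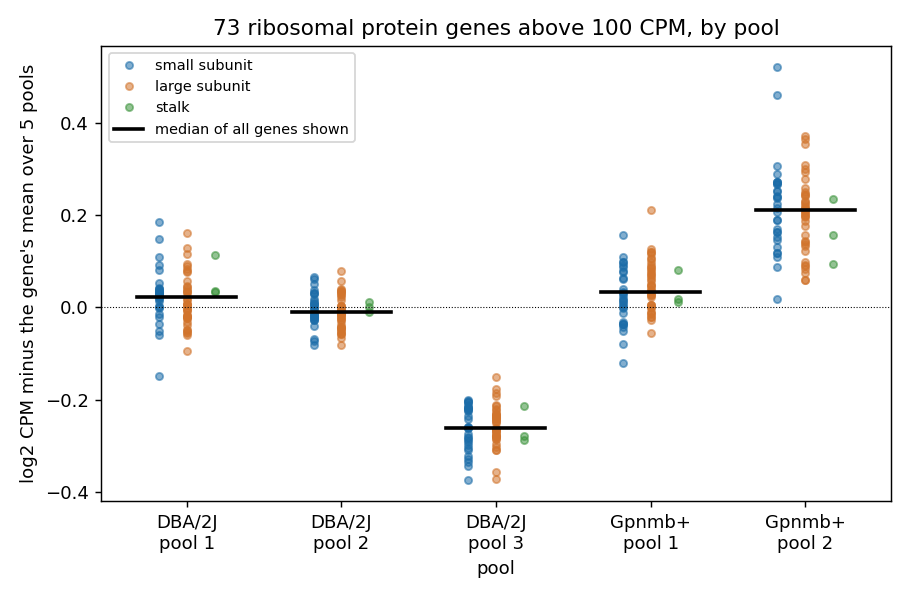
Level of the 73 ribosomal protein genes above 100 CPM in each pool, as log2 CPM minus the gene's own mean over the 5 pools, with 1 point per gene, colors for the role and black bars for the median. DBA/2J pool 3 lies lowest at a median of -0.26 and Gpnmb+ pool 2 highest at 0.21, while the other 3 pools lie between -0.01 and 0.03.

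Without DBA/2J pool 3 the median log2 fold change was -0.12, with 79 members lower, 4 higher and 0 at an unadjusted p of at most 0.05. Without Gpnmb+ pool 2 it was -0.11, with 74 of 82 members lower, 8 higher and 1 at that p. In a fit with 1 Gpnmb+ pool the spread comes from the DBA/2J pools alone, and the lone pool is assumed to vary like them. Leaving out DBA/2J pool 1, DBA/2J pool 2 or Gpnmb+ pool 1 gave medians of -0.25, -0.24 and -0.29. The lower level in DBA/2J thus kept its direction for most members with any pool left out. The median change was smaller without either of the 2 outlying pools. These pools were singled out by their levels of the same members, so a smaller median without them follows from that choice.

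**Figure D3:**
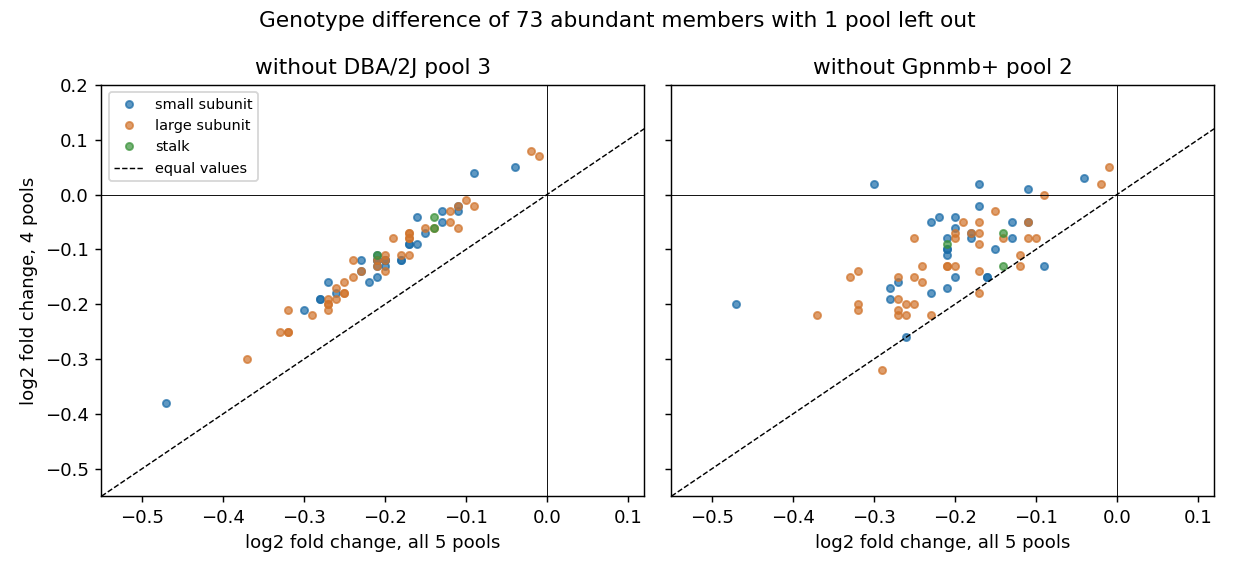
Log2 fold change (DBA/2J minus Gpnmb+) of the 73 members above 100 CPM with all 5 pools (horizontal axis) against the value with DBA/2J pool 3 left out (left panel) or Gpnmb+ pool 2 left out (right panel), with 1 point per gene and a dashed line of equal values. Most points lie above the line, nearer to 0, in both panels, and Rps27 stands at -0.47 with all pools and at -0.38 and -0.20 in the 2 panels.

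Markers of other cell types also differed between these pools. The summed level of 11 corneal epithelium markers, of which none was at 0, was 11315, 11952 and 7402 CPM in the DBA/2J pools against 13598 and 11792 CPM, so that DBA/2J pool 3 was lowest, and 10 of the 11 were lower in DBA/2J. The 8 skeletal muscle markers summed to 193, 273 and 441 CPM against 185 and 118 CPM, with DBA/2J pool 3 highest. The 8 photoreceptor markers summed to 624, 883 and 603 CPM against 368 and 1982 CPM, with Gpnmb+ pool 2 highest. The 10 ciliary epithelium markers summed to 772, 811 and 835 CPM against 360 and 198 CPM. The part of these cell mixtures in the ribosomal protein levels was not tested.

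All 31 small subunit genes tested had a log2 fold change below 0 (median -0.20), and for 10 of them the pools did not overlap, where 17.2% of all genes were lower without overlap. All 42 large subunit genes also stood below 0 (median -0.21), and for 24 the pools did not overlap. The 3 stalk genes had a median of -0.14, and their pools overlapped for all 3. Of the 7 paralogs tested, 6 were lower and 1 higher, from -1.20 to 0.57 with a median of -0.26, and for 2 the pools did not overlap. Differences between roles were not tested. Among the 73 members above 100 CPM the lower and upper quartiles of the change were -0.25 and -0.15, with standard errors of 0.10 to 0.19.

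Among small subunit genes, Rps27, which encodes a zinc finger protein of the small subunit, had the lowest fold change of any member above 100 CPM. Its level was 476, 519 and 407 CPM in DBA/2J and 538 and 758 CPM in Gpnmb+, so the groups did not overlap, but the 2 Gpnmb+ pools lay further apart than Gpnmb+ pool 1 and DBA/2J pool 2. The log2 fold change was -0.47 (SE 0.18), with an unadjusted p of 0.0371 and an adjusted p of 0.281 in edgeR. Rps27 lies at chr3:90119819-90120977 on the minus strand of GRCm39.

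Rps24, a small subunit protein mutated in Diamond-Blackfan anemia, had 801, 803 and 658 CPM against 858 and 979 CPM, and its pools did not overlap. Its log2 fold change was -0.28 (SE 0.13, edgeR adjusted p 0.366). Rps29, another zinc finger protein, had 270, 267 and 234 CPM against 270 and 313 CPM. DBA/2J pool 1 and Gpnmb+ pool 1 coincided for Rps29, and its change was -0.18. Without Gpnmb+ pool 2 the change was -0.07.

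Rpsa, the laminin receptor that is also a small subunit protein, had 615, 548 and 440 CPM against 594 and 599 CPM. Its highest and its lowest pool were both DBA/2J, and the log2 fold change was -0.16. Without DBA/2J pool 3 the change was -0.04. Rps9, a protein at the entry channel of the mRNA, had 674, 660 and 550 CPM against 617 and 672 CPM. The groups overlapped for Rps9, and its change of -0.04 turned to 0.05 without DBA/2J pool 3 and to 0.03 without Gpnmb+ pool 2.

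Among large subunit genes, Rpl41 encodes the shortest ribosomal protein and had the smallest p of any member. Its level was 310, 300 and 261 CPM in DBA/2J against 364 and 347 CPM, without overlap, and its log2 fold change was -0.29 (SE 0.10, unadjusted p 0.0318, edgeR adjusted p 0.266). Rpl41 was among the few members that did not follow the order of the Gpnmb+ pools, since Gpnmb+ pool 1 was the higher. Without Gpnmb+ pool 2 its change was -0.32. Its coding sequence without the stop codon (GRCm39, gene at chr10:128383979-128387628, minus strand) is 75 bases long and is shown because its length sets the scale of its level per kilobase.

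Rpl41: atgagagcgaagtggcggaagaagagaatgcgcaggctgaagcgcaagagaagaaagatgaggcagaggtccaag

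Rpl17, a protein near the exit tunnel, had 587, 608 and 506 CPM against 659 and 811 CPM, without overlap. Its log2 fold change was -0.37 (SE 0.14, unadjusted p 0.0334, edgeR adjusted p 0.27), the lowest of the large subunit. Without Gpnmb+ pool 2 the change was -0.22. Rpl5, which with Rpl11 and the 5S RNA restrains Mdm2, had 463, 461 and 384 CPM against 485 and 613 CPM. Its change was -0.33 (SE 0.14, edgeR adjusted p 0.337) and -0.15 without Gpnmb+ pool 2. Rpl23, also a binder of Mdm2, had 650, 641 and 560 CPM against 716 and 776 CPM, with a change of -0.27.

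Rpl7, Rpl27 and Rpl15 are described because their fold changes were nearest to 0 among the large subunit genes. Rpl7 had 938, 940 and 787 CPM against 856 and 937 CPM, with a log2 fold change of -0.01 that became 0.07 without DBA/2J pool 3. Rpl27 had 161, 148 and 122 CPM against 142 and 150 CPM, with a change of -0.02 that became 0.08. Rpl15 had 241, 224 and 199 CPM against 222 and 249 CPM, with a change of -0.09 that became -0.02 without DBA/2J pool 3. DBA/2J pool 3 was the lowest pool for each of these genes. The other pools were interleaved for Rpl27 and Rpl15, while for Rpl7 both Gpnmb+ pools lay below DBA/2J pools 1 and 2.

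The stalk recruits translation factors to the ribosome and is built from Rplp0 and dimers of Rplp1 and Rplp2. Rplp0 had 600, 551 and 457 CPM against 587 and 592 CPM, with a log2 fold change of -0.14. Rplp1 had 515, 503 and 412 CPM against 509 and 592 CPM (-0.21), and Rplp2 had 183, 180 and 154 CPM against 180 and 199 CPM (-0.14). DBA/2J pool 3 was the lowest pool for all 3 genes, and the smallest edgeR adjusted p among them was 0.512. Without DBA/2J pool 3 the changes of Rplp0, Rplp1 and Rplp2 were -0.04, -0.11 and -0.06.

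The 4 members on the X chromosome were compared because the pools differ in sex. Rpl39, which lines the exit tunnel, had 223, 221 and 175 CPM against 239 and 275 CPM (log2 fold change -0.32), and Rpl36a had 172, 166 and 143 CPM against 187 and 200 CPM (-0.27, unadjusted p 0.0437, edgeR adjusted p 0.298). Rpl10, which completes the large subunit, had 754, 780 and 687 CPM against 783 and 816 CPM (-0.11). Rps4x, the X-linked copy of a gene that has a Y-linked copy in humans, had 914, 913 and 771 CPM against 899 and 995 CPM (-0.13). The median over the 4 was -0.20, beside -0.21 for all members. Without DBA/2J pool 3 the changes of Rpl39, Rpl36a, Rpl10 and Rps4x were -0.21, -0.19, -0.06 and -0.05.

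Paralogs are the members whose expression is known to vary between tissues. Rpl22l1, the homolog of Rpl22, was the most abundant, with 94.8, 94.4 and 82.1 CPM against 103 and 116 CPM and a log2 fold change of -0.28 (SE 0.10, unadjusted p 0.0348, edgeR adjusted p 0.274). It made up 23.8% to 25.6% of the counts of the pair in every pool, and the ratio was not tested. Rpl7l1, a biogenesis factor related to Rpl7, had 91, 82.6 and 84.1 CPM against 84.4 and 93.4 CPM (-0.05) and did not show the low level in DBA/2J pool 3.

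Rpl3l had 1.03, 1.37 and 3.61 CPM against 1.34 and 1.37 CPM, so that DBA/2J pool 3 alone stood high while Rpl3 was lowest there at 414 CPM. Its share of the pair's counts was 0.864% in DBA/2J pool 3 and 0.208% to 0.278% in the other pools. The log2 fold change of 0.57 (SE 0.56, edgeR adjusted p 0.677) became -0.17 without that pool. The skeletal muscle markers were highest in the same pool, at 441 CPM beside 118 to 273 CPM elsewhere.

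Rpl39l, a homolog of Rpl39 known from male germ cells, had 4.59, 3.1 and 3.43 CPM against 6.29 and 4.89 CPM, without overlap, and a log2 fold change of -0.59 (SE 0.23, unadjusted p 0.044, edgeR adjusted p 0.299). It was the higher in Gpnmb+ pool 1, unlike most members. Rps27l, a p53-responsive homolog of Rps27, had 50.4, 47.6 and 41.9 CPM against 49 and 56.6 CPM (-0.18). Without Gpnmb+ pool 2 its change was -0.07. Its share of the pair was 6.95% in Gpnmb+ pool 2, where Rps27 peaked, and 8.34% to 9.58% elsewhere. Rps4l had 7.29, 6.99 and 4.93 CPM against 8.67 and 6.71 CPM (-0.26). Its change was -0.06 without Gpnmb+ pool 1, -0.11 without DBA/2J pool 3 and -0.44 without Gpnmb+ pool 2. Rpl10l, known from testis, had 0 counts in all 5 pools.

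**Figure D4:**
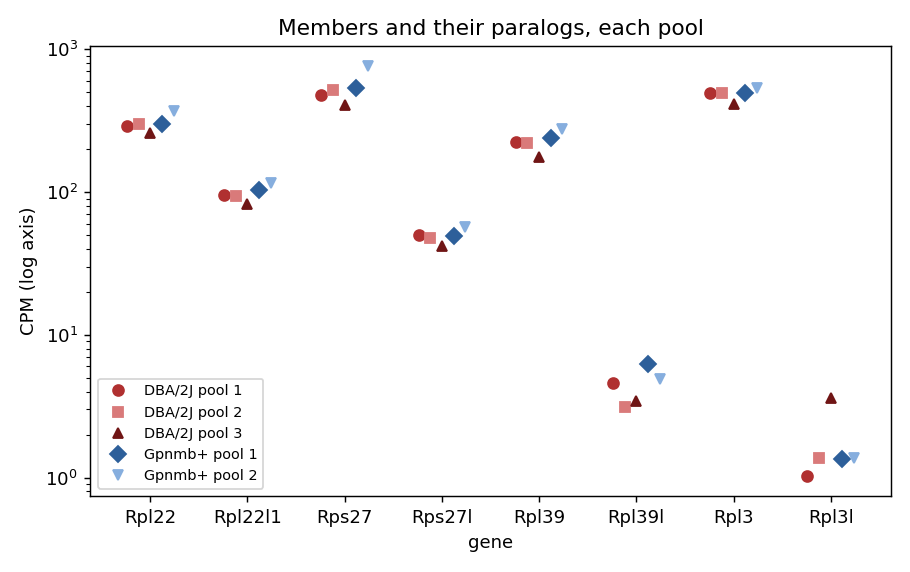
Level in CPM (log axis) of 4 members and their paralogs in each of the 5 pools, with red shades for DBA/2J and blue shades for Gpnmb+. Rpl22, Rpl22l1, Rps27, Rps27l, Rpl39 and Rpl3 are lowest in DBA/2J pool 3, while Rpl3l is highest there at 3.61 CPM.

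The coding sequences of 2 such pairs are shown because they decide whether reads can be told apart. Each is given without the stop codon, 5′ to 3′, from the GRCm39 transcripts, with capitals at the bases where the 2 members of a pair differ. Rps27 and Rps27l (chr9:66853340-66856808, plus strand) are identical at 192 of 252 bases, or 76.2%, with no identical run over 11 bases.

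Rps27: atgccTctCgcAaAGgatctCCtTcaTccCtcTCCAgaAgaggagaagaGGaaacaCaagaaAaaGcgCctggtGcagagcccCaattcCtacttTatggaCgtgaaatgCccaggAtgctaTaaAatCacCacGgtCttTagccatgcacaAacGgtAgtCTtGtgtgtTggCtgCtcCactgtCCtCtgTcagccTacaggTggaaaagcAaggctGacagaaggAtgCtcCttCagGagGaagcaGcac

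Rps27l: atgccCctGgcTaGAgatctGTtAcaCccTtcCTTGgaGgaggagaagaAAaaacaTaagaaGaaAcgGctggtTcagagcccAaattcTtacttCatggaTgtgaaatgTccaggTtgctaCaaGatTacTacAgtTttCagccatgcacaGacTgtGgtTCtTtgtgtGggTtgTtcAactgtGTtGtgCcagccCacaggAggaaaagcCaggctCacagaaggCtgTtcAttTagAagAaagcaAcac

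Rpl39 (chrX:36345092-36349130, minus strand) and Rpl39l (chr16:9949671-9992780, plus strand) are identical at 130 of 153 bases, or 85%, with a longest identical run of 38 bases. A read of 100 bases thus spans several differences in either pair.

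Rpl39: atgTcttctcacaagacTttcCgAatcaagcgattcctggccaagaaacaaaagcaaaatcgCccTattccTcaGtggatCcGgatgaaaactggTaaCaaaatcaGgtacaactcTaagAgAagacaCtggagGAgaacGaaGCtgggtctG

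Rpl39l: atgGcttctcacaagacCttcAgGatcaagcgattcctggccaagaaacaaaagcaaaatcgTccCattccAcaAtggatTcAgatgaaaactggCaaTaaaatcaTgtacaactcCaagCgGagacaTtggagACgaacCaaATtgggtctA

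Longer runs are shared with other places in the genome, and what lies at those places was not examined. For 48 of the 83 tested members, over 50% of the 100-base windows that touch the coding sequence had an exact match elsewhere in GRCm39, with 81.1% for Rps27 and 0 for Rps27l and Rpl39l. Only reads with a single place in the genome were counted. How many reads this removed was not measured, and Rpl10, with 93.9% of its windows matched elsewhere, still had 30650 to 39908 counts per pool. The median log2 fold change was -0.20 for these 48 genes and -0.21 for the other 35. Rows for 323 pseudogenes named after a ribosomal protein held between 1.44% and 1.59% as many counts as the members in every pool.

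Overlapping genes limited 4 members more severely. Rpl13a, Rps10, Rpl36al and Rpl24 share 97.5%, 92.1%, 95.3% and 83.4% of their coding bases with an annotated gene on the same strand, and the counts were low although Rpl13a, Rps10 and Rpl24 belong to every ribosome. Rps10 had 10, 12 and 7 counts in DBA/2J against 23 and 22 in Gpnmb+, and its log2 fold change of -1.03 (SE 0.40, unadjusted p 0.0402, edgeR adjusted p 0.289) rests on these few reads. With the counts of its named pseudogenes added, the change was -0.19 (edgeR adjusted p 0.679). Rpl36al had 8, 3 and 1 counts against 7 and 14, with a change of -1.20 (SE 0.81) that was -2.14 without DBA/2J pool 1 and -0.74 without DBA/2J pool 3. Rpl13a had 388, 289 and 345 counts against 490 and 471 (-0.32). Rpl24 had 4, 1 and 1 counts against 5 and 3 and was not tested.

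The level per kilobase of coding sequence was highest for Rpl41 at 4219 CPM per kilobase. Rps27 followed at 2141, Rps24 at 2102, Rps29 at 1613, Rpl23 at 1592 and Rpl39 at 1481. Reads on untranslated bases enter the count but not the length, which raises this value most for the shortest coding sequences. Rpl41 has 75 coding bases in a reference mRNA of 394 bases, and Rps24 has 390 in 468. The order therefore does not rank the genes by level per length of mRNA. Across the 73 members above 100 CPM, the Spearman correlation of the log2 fold change with coding length was 0.39, with GC content 0.22, with the share of repeated windows 0.07 and with the mean level 0.03. These correlations are across genes measured in the same 5 libraries and are given as a description.

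The annotated starts of these genes were examined because nearly all members had a lower level in DBA/2J. RefSeq promoter sequences (GRCm38.p6, 250 bases before to 50 after each start) matched 64 of the 85 members. A gene can have several annotated starts, and for 54 of the 64 a start in this table was the outermost one that RefSeq gives the gene. A C at the annotated start followed by at least 4 bases of C or T was found for 13 of the 64, or 20.3%. The share of all 27025 symbols was 3.01%, and only the gene's own strand was searched, 5′ to 3′. The median log2 fold change was -0.20 both for the 13 members with this start and for the 49 tested members without it. The looser pattern of a C followed by at least 6 bases of C or T, from 30 bases before the start to 50 after it, was found for 50 of the 64, or 78.1%, beside 37% of all symbols, with medians of -0.21 with it and -0.15 for the 12 tested members without it. The following windows run from 10 bases before the start to 20 after it, 5′ to 3′ on the gene's strand, with the pyrimidine run at the start in capitals. They are shown because the run is present in genes at both ends of the range of changes (Rps27 at chr3:90213629-90213658 and Rpl15 at chr14:18270967-18270996, both minus strand). Rpl27 (chr11:101442235-101442264, plus strand) has none at this start.

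Rps27: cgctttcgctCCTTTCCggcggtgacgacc

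Rpl15: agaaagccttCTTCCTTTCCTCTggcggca

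Rpl27: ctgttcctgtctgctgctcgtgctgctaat

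The letters CCGGAAG, a core for ETS factors, were found on either strand in 26 of the 64 promoters, or 40.6%, beside 9.93% of all symbols. The letters AAGATGG, a core for YY1, were found on either strand in 10, or 15.6%, beside 7.28%. The motifs can overlap by the AAG that ends the first and begins the second. Members with either core had medians of -0.21 and -0.20. The promoters of Rpl15 (chr14:18270967-18271136) and Rps27 (chr3:90213629-90213798), both GRCm38.p6 and minus strand, from 150 bases before the start to 20 after it, show 1 of each, in capitals. A match is a description of letters, and occupancy was not measured.

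Rpl15: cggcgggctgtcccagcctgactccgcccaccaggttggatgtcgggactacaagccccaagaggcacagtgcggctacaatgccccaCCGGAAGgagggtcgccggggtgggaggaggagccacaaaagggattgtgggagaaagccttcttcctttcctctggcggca

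Rps27: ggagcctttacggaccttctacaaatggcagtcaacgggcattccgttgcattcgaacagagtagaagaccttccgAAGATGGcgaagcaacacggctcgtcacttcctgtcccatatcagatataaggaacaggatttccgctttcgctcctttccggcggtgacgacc

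The other genes of the translation pathway were described from lists, with 0 called in each by edgeR, where 0.796% of all genes were called. At that share, short lists such as these can hold 0 called genes without differing from other genes. Proteins that join the ribosome outside the naming rule resembled the members. Rack1, a scaffold on the small subunit, had 610, 577 and 483 CPM against 608 and 677 CPM (log2 fold change -0.21), and Fau, whose precursor carries a small subunit protein, had 164, 178 and 149 CPM against 172 and 195 CPM (-0.17).

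The 78 genes of the mitochondrial ribosome, which is a separate particle, centered on a log2 fold change of 0.02 (median), with 31 lower and 47 higher. At an unadjusted p of at most 0.05 in edgeR, where 7.6% of all genes were lower and 8.31% higher, 2 of the 78 were lower and 3 higher. Their median deviation in DBA/2J pool 3 was -0.01, beside -0.26 for the cytosolic genes. The 10 tested genes of the elongation list, which also holds the release factors Etf1 and Gspt1, had a median of -0.03, with 0 at that p. Eef1a1, which delivers aminoacyl-tRNA, had 7401, 7516 and 6317 CPM against 7160 and 7610 CPM (-0.06), and Eef2, which drives translocation, had 2018, 2136 and 1778 CPM against 2050 and 1960 CPM (-0.02). Tpt1, a TOP transcript, had 1519, 1536 and 1382 CPM against 1490 and 1819 CPM (-0.16). All 3 were lowest in DBA/2J pool 3.

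The 29 initiation factors had a median of -0.02, with 15 lower and 14 higher. Eif2s3x, Eif4a2 and Eif4b were lower at an unadjusted p of at most 0.05 in edgeR, where 7.6% of all genes were lower. The 42 ribosome biogenesis genes had a median of 0.07, with 32 higher and 0 at that p, and were highest in DBA/2J pool 1, at a median deviation of 0.32. Ncl, or nucleolin, showed this with 760, 561 and 539 CPM against 606 and 560 CPM (0.09), and Npm1 had 570, 436 and 407 CPM against 484 and 414 CPM (0.07). The 16 RNA polymerase I genes had a median of -0.01, the 17 genes of mTORC1 and TOP control -0.01, and the 11 genes of the p53 response to ribosomal stress -0.12. Of the RNA polymerase I genes, 7 were lower without overlap of the pools and 1 higher, beside 17.2% and 17.3% of all genes. Taf1d and Ttf1 were lower at an unadjusted p of at most 0.05 in edgeR, beside 7.6% of all genes.

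The 14 host genes of small nucleolar RNAs, several of which are also TOP transcripts, all stood below 0, and the median of their log2 fold changes was -0.50. For 7 of them the pools did not overlap and the unadjusted p was at most 0.05, where 17.2% and 7.6% of all genes were lower in those ways, and the smallest edgeR adjusted p was 0.164, for Snhg17. Snhg17 had 1.51, 1.3 and 2.15 CPM against 2.92 and 4.17 CPM (-1.10), and Gas5 had 48.3, 55.1 and 51 CPM against 54 and 74.3 CPM (-0.32). Unlike the ribosomal protein genes, this list had a median deviation in Gpnmb+ pool 1 (0.26) near that in Gpnmb+ pool 2 (0.31), and DBA/2J pool 3 (-0.14) lay between pools 1 and 2 (-0.23 and -0.08). Rack1 belongs to this list as well.

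**Figure D5:**
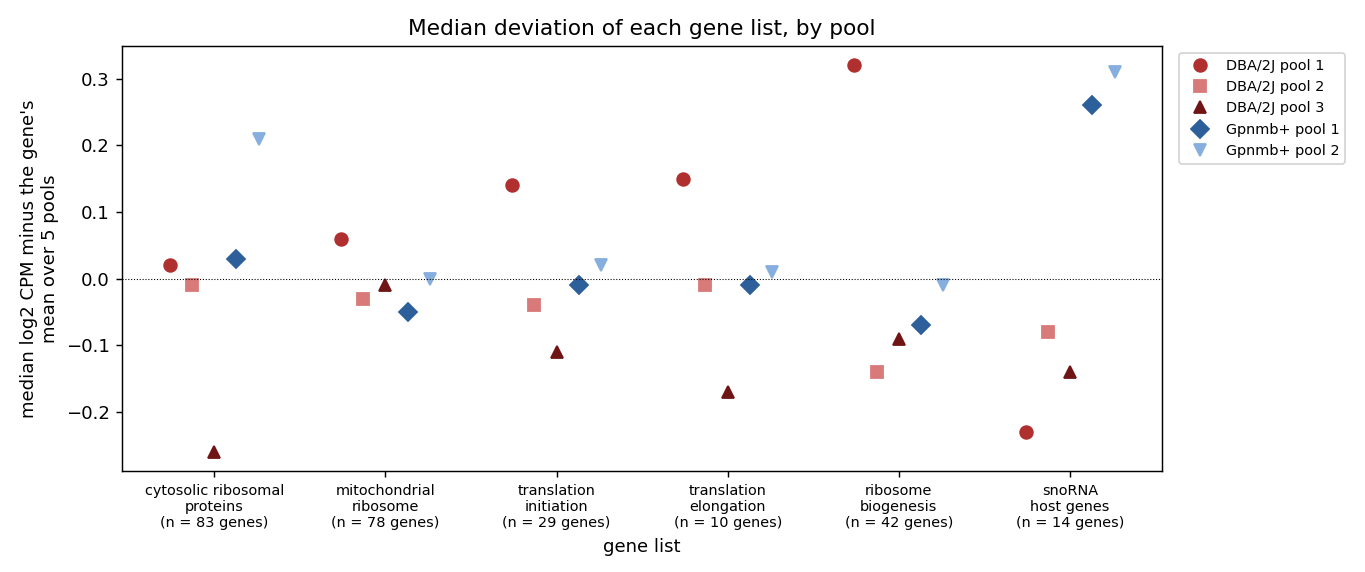
Median deviation of 6 gene lists in each pool, as log2 CPM minus each gene's mean over the 5 pools, with red shades for DBA/2J and blue shades for Gpnmb+ and the number of tested genes under each list. The cytosolic ribosomal protein genes range from -0.26 in DBA/2J pool 3 to 0.21 in Gpnmb+ pool 2, whereas the mitochondrial ribosome stays between -0.05 and 0.06.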

How the data were processed

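Reads were 100 bp paired-end from mRNA-enriched libraries. The authors used fastp for trimming and STAR for alignment to GRCm39, kept reads with a single genomic location and deposited them as raw, unnormalized counts per gene. The strand setting is not given in the sources used here, so antisense overlaps (100% of the coding bases of Rpl28 with Ube2s) are uncertain. Names came from GENCODE M39, which held 56323 of 56941 identifiers.

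Counts were tested in R 4.3.3 with edgeR 4.0.16 (TMM scaling, at least 10 counts in at least 1 pool, quasi-likelihood test, no covariate), with DESeq2 1.42.0 and limma 3.58.1 as alternatives, and the code was tested on simulated data. Log2 CPM used a prior count of 2. Python 3.11.15 made tables and sequences. No 2 libraries were the same (identical values in 4.41% to 5.16% of rows with a count in either). Named genes were the 6 largest and 6 smallest fold changes, the 6 highest levels per coding length, stalk genes, Rpsa, paralogs, X-linked members and 9 related genes, of which 1 is not reported here. Other genes were named after their values were seen. Members and lists were chosen with earlier results of these data known.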

Additional observations from a re-analysis of the deposited data

How the results depend on the processing

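The count of 0 members called held in edgeR, DESeq2 and limma-voom and under all 15 alternatives, with a smallest adjusted p of 0.132 (DESeq2). The members' median stayed between -0.29 and -0.11. Members lower at an unadjusted p of at most 0.05 numbered 9 in the reported fit, 19 with upper-quartile scaling, 14 with DESeq2, 25 with scaling by total counts (chosen after seeing the data) and 0 to 11 with 1 pool left out (0 without DBA/2J pool 3). Genes called among all numbered 157, and 927 with DESeq2, 360 without a count filter and 1 to 217 with 1 pool left out. Pools of the same number share only that number. Their deviations correlated at 0.28 and 0.25, and with the replicate block 4 members were at that p, with a median of -0.12 and 220 genes called. Of 403 values for 27 named members, 390 kept their direction. Rpl3l turned to -0.18 with the block and -0.17 without DBA/2J pool 3. Rpl7 turned to 0.01 without a count filter, 0.07 with the block, 0.07 without DBA/2J pool 3 and 0.05 without Gpnmb+ pool 2. Rpl27 turned to 0.08, 0.08 and 0.02, and Rps9 to 0.05, 0.05 and 0.03, under the last 3 settings. Rpl7l1 turned to 0.03 without Gpnmb+ pool 2. With 1 pool left out, Rpl3l ranged from -0.17 to 0.88, Rpl7 from -0.07 to 0.07 and Rps9 from -0.10 to 0.05. The cause was not tested. With 2 control pools, differences of this size could not be told from pool to pool spread.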
